A study of Homo sapiens with 40 samples.

Results

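The 38 genes described here encode factors of the senescence-associated secretory phenotype (SASP), the set of signalling molecules that senescent cells release. They were chosen by name, and all 38 were found among the 19676 protein-coding genes of GENCODE 44. By role they are 7 chemokines, 7 cytokines, 8 growth factors or other secreted proteins, 8 proteases and 3 protease inhibitors. The other 5 are receptors or adhesion proteins, whose shed or secreted forms are also counted as SASP factors. For each gene the H3K27ac peak and the CTCF peak with the highest mean count within 2 kb of its protein-coding start sites were taken, together with H3K27ac peaks in enhancers in the gene or nearest to it within 100 kb.

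The peaks come from chromatin immunoprecipitation and sequencing (ChIP-seq) of EndoC-βH3 cells, a single human pancreatic beta-cell line of genotype WT per the labels. All cultures began with an excisable cassette of hTERT and SV40 Large T-antigen and with a tamoxifen-activated Cre recombinase (CreER). Senescent cells had received 4-hydroxytamoxifen (4-OHT) for 3 weeks, which removes the cassette, and the non-senescent cells are labelled control. The drug and the loss of the cassette therefore cannot be told apart from senescence itself. H3K27ac and CTCF were each measured in 3 senescent and 3 non-senescent libraries, and H3K4me1 and Rb in 2 and 2, with an input for every library, 40 libraries in all. Nothing states that libraries of a group came from separate cultures, so the errors below may cover technical spread alone.

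The SASP is driven in many cell types by the transcription factor NF-κB and its partners, which raise inflammatory genes such as IL6 and CXCL8. Interleukins and chemokines call in immune cells, growth factors act on neighbouring cells, and proteases with their inhibitors remodel the matrix around them. H3K27ac marks active promoters and enhancers, and CTCF binds DNA at the base of chromatin loops and at boundaries between domains. Neither is a measure of RNA or of secretion, and in bulk chromatin a mark lost from some cells cannot be told apart from a mark lowered in all of them.

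The authors' deposited tables, from DESeq2, give for each peak a mean normalized count over the 6 libraries. They also give a log2 fold change of senescent over non-senescent cells with its standard error (SE), and an adjusted p-value. The adjusted p is missing for 11972 of 51457 CTCF peaks. Values of single libraries are not in these tables, so no per-library level can be given, and the SE carries the spread between libraries. A call of gained or lost needed an adjusted p under 0.05 for H3K27ac and under 0.2 for CTCF, in both cases with a fold change above 1.5, which is 0.585 on the log2 scale. The median SE over all peaks was 0.194 for H3K27ac and 0.294 for CTCF. All 14 beta-cell markers examined, INS among them, had an H3K27ac peak at the promoter, with a median of 340 counts per kb. Such a peak was present at 3 of 5 markers of other islet cells, 2 of 7 exocrine markers and 1 of 7 stromal, endothelial and blood markers, the last at CD68 in a peak that also covers start sites of EIF4A1 and MPDU1. Markers of other cell types fell as well, namely SST by 0.86 ± 0.29 and HHEX by 0.76 ± 0.12 on the log2 scale among those of other islet cells. The exocrine marker KRT19 fell by 0.74 ± 0.078, in a peak that covers a start site of KRT15 and lies 174 bp from that of KRT19. Among the beta-cell markers PCSK1 fell by 1.41 ± 0.085 and IAPP rose by 0.93 ± 0.15. The part of other cell types in the values below was not tested.

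Promoter sequences are shown first for the genes on which the chemokine results turn, and for IL6 and CXCL12 beside them. RefSeq promoters on build GRCh38.p14 were at hand for 26 of the 38 genes. Each sequence runs 5′ to 3′ over the 250 bases before the start site. Capitals mark matches to the NF-κB motif GGANNNTCC or to the AP-1 motif TGANTCA, both of which read alike on either strand.
CXCL1, chr4:73869143-73869392, plus strand: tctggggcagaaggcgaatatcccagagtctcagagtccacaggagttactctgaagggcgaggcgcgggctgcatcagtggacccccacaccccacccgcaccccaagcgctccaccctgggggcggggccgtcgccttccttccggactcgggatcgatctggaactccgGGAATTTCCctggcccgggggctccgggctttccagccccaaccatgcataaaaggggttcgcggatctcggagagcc
CXCL2, chr4:74099196-74099445, minus strand: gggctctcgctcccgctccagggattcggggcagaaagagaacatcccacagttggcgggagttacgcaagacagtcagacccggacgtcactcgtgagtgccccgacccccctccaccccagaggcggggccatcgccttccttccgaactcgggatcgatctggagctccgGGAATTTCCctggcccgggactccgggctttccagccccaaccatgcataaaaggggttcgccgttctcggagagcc
CXCL3, chr4:74038690-74038939, minus strand: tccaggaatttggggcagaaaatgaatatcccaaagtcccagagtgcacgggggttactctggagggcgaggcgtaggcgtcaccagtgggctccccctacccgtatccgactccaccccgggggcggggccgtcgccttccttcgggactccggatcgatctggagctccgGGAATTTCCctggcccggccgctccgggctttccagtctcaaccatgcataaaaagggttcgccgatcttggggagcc
CXCL8, chr4:73740319-73740568, plus strand: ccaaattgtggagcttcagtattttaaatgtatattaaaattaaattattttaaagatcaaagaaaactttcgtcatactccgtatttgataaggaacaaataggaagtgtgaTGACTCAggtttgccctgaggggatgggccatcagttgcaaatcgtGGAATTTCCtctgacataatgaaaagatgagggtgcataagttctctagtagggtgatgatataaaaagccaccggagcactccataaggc
IL6, chr7:22726950-22727199, plus strand: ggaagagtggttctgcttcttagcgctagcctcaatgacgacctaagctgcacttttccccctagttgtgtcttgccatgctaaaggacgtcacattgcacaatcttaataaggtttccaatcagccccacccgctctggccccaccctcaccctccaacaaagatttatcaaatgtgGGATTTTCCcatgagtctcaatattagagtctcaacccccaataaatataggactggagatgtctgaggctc
CXCL12, chr10:44385098-44385347, minus strand: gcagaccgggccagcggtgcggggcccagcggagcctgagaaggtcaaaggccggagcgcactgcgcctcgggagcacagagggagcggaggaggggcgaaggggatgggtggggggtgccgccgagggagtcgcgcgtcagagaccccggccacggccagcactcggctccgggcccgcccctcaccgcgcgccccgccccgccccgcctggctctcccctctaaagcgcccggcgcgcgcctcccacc

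Over windows of 300 bases that reach 50 bases past the start site, the NF-κB letters were found in 8 of 26 promoters of the secretory factors (30.8%) and in 9.7% of 15842 protein-coding promoters. The 8 were CXCL1, CXCL2, CXCL3, CXCL8, IL6, CCL20, CSF2 and ICAM1. CCL2, CSF1, LIF, MMP1, MMP2, MMP3, MMP9, TIMP2, PLAT, VEGFA, STC1 and TNFRSF11B had no sequence at hand and were not searched. In CXCL1 and CXCL3 the match began 78 bases before the start site, in CXCL2 77 bases, in CXCL8 91 bases and in IL6 72 bases. The 4 CXC chemokine promoters carried the same letters, GGAATTTCC, whereas IL6 carried GGATTTTCC. CXCL1 and CXCL3 were identical over 82.5% of their aligned promoters, CXCL1 and CXCL2 over 71.9% and CXCL2 and CXCL3 over 73.8%, so these matches are not independent of each other. AP-1 letters were found in 5 of 26 (19.2%, against 5.75%), in IL1A, CXCL8, MMP10, PLAUR and SERPINB2. A match describes letters in the window and not binding, and the CXCL12 promoter held neither motif.

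Most of the secretory genes carried no H3K27ac peak at the promoter in either state. Of the 38 genes, 26 (68.4%) had none within 2 kb of a start site, against 6617 of 19676 protein-coding genes (33.6%). The share without a peak was 8 of 8 among the proteases, 6 of 8 among growth factors and other secreted proteins, 5 of 7 among cytokines, 3 of 5 among receptors and adhesion proteins, 3 of 7 among chemokines and 1 of 3 among protease inhibitors. The other 51 genes of the study's SASP signature were alike in this respect, with 35 (68.6%) lacking a peak. The CTCF table differed less, since 21 of the 38 genes (55.3%) and 52.4% of all genes had no CTCF peak at the promoter.

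At the 12 promoters with an H3K27ac peak, 4 lost and 1 gained acetylation in senescent cells, and 7 were not called. That is 41.7% called, against a background of 12.1% of the 13059 genes with a peak. By direction, 33.3% were lost against 8.94% over all genes, and 1 of 12 was gained against 3.15%. The log2 fold change ran from -1.46 to 0.71 with a median of -0.16, while the median over all genes was 0.038. It was negative at 9 promoters and positive at 3. The peaks were also modest in level, with a median of 95.7 normalized counts per kb against 184 over all genes. With 12 peaks these shares rest on few genes, and no test was run over the list. The median was -0.46 at canonical start sites, and a test against a fold change of 1.5 left 2 lost, CXCL2 and TNFRSF11B, and 0 gained.

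**Figure D1:**
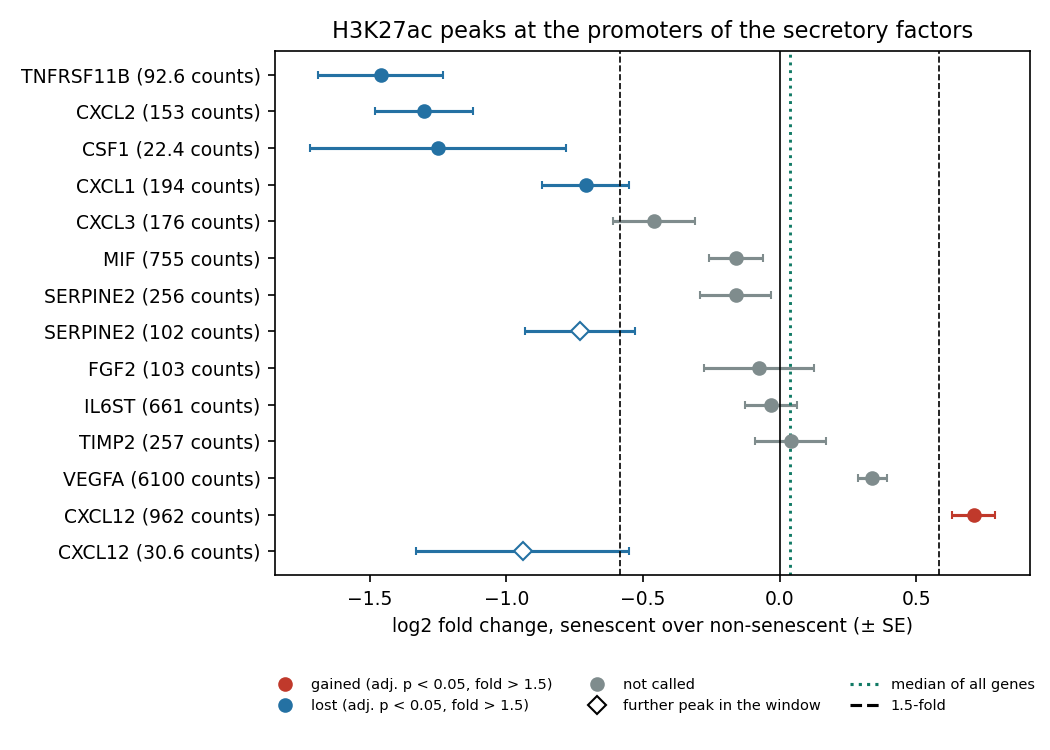
Log2 fold change of H3K27ac (senescent over non-senescent, ± SE) at each promoter peak of the secretory factors, with the mean normalized count in brackets. Filled circles stand for the gene, open diamonds are further peaks in the same window, dashed lines mark a 1.5-fold change and the dotted line the median of all genes (0.038). Among the filled circles TNFRSF11B, CXCL2, CSF1 and CXCL1 lie beyond the line on the left and CXCL12 alone beyond it on the right.

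Among the chemokines, the promoters of CXCL1 and CXCL2, which attract neutrophils, lost H3K27ac, and that of CXCL12 gained it. CXCL2 had a mean of 153 normalized counts in its promoter peak (chr4:74098516-74100409) and fell by 1.30 ± 0.18 on the log2 scale (adjusted p = 2.60e-11), to 0.405 of its non-senescent level. CXCL1 had 194 counts (chr4:73868593-73871114) and fell by 0.71 ± 0.16 (adjusted p = 5.71e-05), to a ratio of 0.61. CXCL3, with 176 counts (chr4:74037652-74039716), had a log2 fold change of -0.46 ± 0.15 (adjusted p = 0.00872), past the p threshold but short of the fold threshold. All 3 peaks span the start site and first exon that follow the promoter sequences shown above, with the identical NF-κB letters inside them. The peaks of CXCL2 and CXCL3 share 6.99% of the 50-base windows of the first, and how reads that map to both were handled is not stated in the sources used here. CXCL1 shares far less, 0.0809% of its windows with CXCL2 and 0.243% with CXCL3.

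CXCL12, the ligand of CXCR4 and a chemokine that attracts progenitor and immune cells, had the only promoter peak that was gained. Its peak (chr10:44380522-44386702) held 962 counts and rose by 0.71 ± 0.08 on the log2 scale (adjusted p = 1.14e-17), a ratio of 1.64. A short peak of 500 bp just beyond it, chr10:44386708-44387208, held 30.6 counts and fell by 0.94 ± 0.39 (adjusted p = 0.0393). The broad gain over the start site and the small loss at its outer edge thus lay in one window. The remaining chemokines, CXCL8, CCL2 and CCL20, had no promoter peak.

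Of the 7 cytokines only CSF1 and MIF had an acetylated promoter. CSF1, the growth factor of macrophages, had the weakest of the 12 peaks, 22.4 counts in 500 bp (chr1:109910491-109910991). It fell by 1.25 ± 0.47 on the log2 scale (adjusted p = 0.0212), and its 95% interval ran from -2.17 to -0.34. With the trend of the fold change with GC content removed it was -1.04 ± 0.47 and no longer called, which left 3 lost promoters. MIF, macrophage migration inhibitory factor, had 755 counts (chr22:23893030-23896293) and a log2 fold change of -0.16 ± 0.10 (adjusted p = 0.192). IL1A, IL1B, IL6, CSF2 and LIF, which include the core interleukins of the SASP, had none.

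TNFRSF11B, or osteoprotegerin, is a secreted decoy receptor for RANKL. Its promoter on chromosome 8 showed the lowest value of the 12, with 92.6 counts and a fall of 1.46 ± 0.23 on the log2 scale (adjusted p = 5.85e-09), a ratio of 0.362. IL6ST, the gp130 chain shared by receptors of the IL-6 family, had 661 counts and a log2 fold change of -0.032 ± 0.094 (adjusted p = 0.816), with a 95% interval from -0.22 to 0.15. The interval lies inside a 1.5-fold change on either side. ICAM1, PLAUR and TNFRSF1A had no promoter peak.

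VEGFA, the vascular growth factor that beta cells express, had the widest acetylated promoter of the list, 6100 counts in a domain of 22195 bp (chr6:43769404-43791599). Per length it held 275 counts per kb, against 241 for IL6ST and 231 for MIF, and more than 76.7% of genes with a peak. Its log2 fold change was 0.34 ± 0.053 (adjusted p = 3.63e-09), a ratio of 1.26 that stayed short of the fold threshold. FGF2, a fibroblast growth factor, had 103 counts and a log2 fold change of -0.075 ± 0.20 (adjusted p = 0.802). HGF, AREG, EREG, ANGPTL4, STC1 and SPP1 had no peak.

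None of the 8 proteases (MMP1, MMP2, MMP3, MMP9, MMP10, MMP14, PLAU and PLAT) had H3K27ac at a start site, but 2 of the 3 protease inhibitors did. TIMP2, an inhibitor of metalloproteinases, had 257 counts at an internal start site that it shares with CEP295NL and a log2 fold change of 0.041 ± 0.13. No H3K27ac peak lay at the start site at the 5′ end of TIMP2. SERPINE2, an inhibitor of thrombin and plasminogen activators, had 256 counts at an internal start site (chr2:224029692-224032095) and a log2 fold change of -0.16 ± 0.13 (adjusted p = 0.351). At its canonical start site (chr2:224038089-224039774) a second peak of 102 counts fell by 0.73 ± 0.20 (adjusted p = 0.00117). The call for this gene therefore depends on which start site stands for it. SERPINB2 had no peak.

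**Figure D2:**
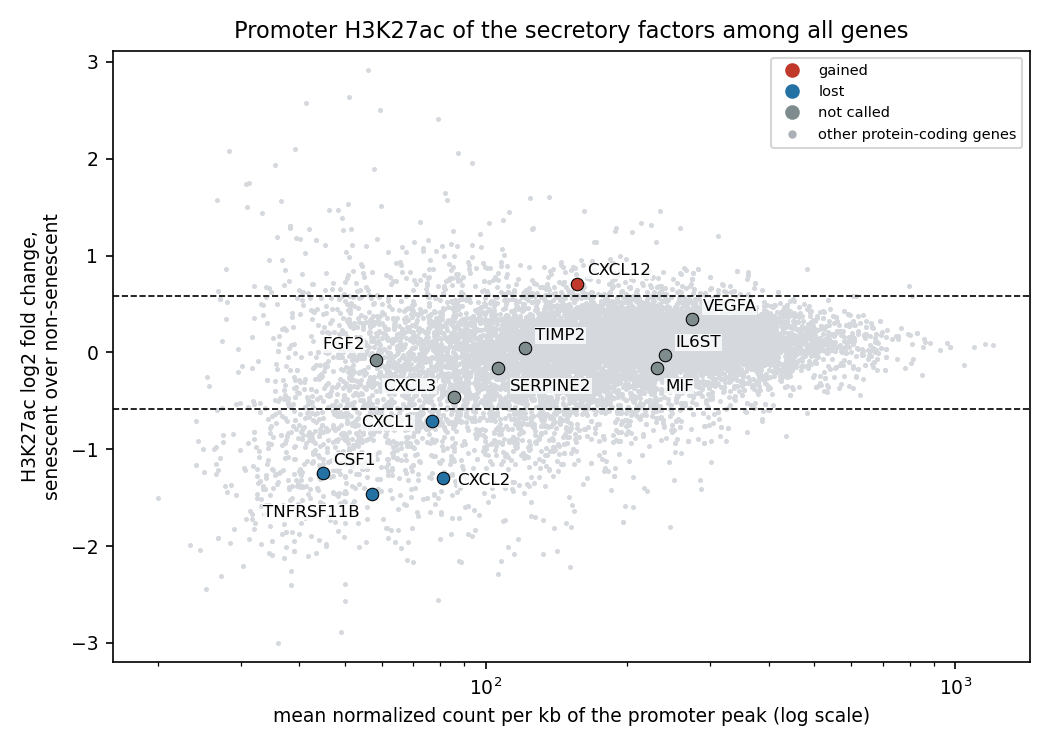
Promoter H3K27ac of the 12 secretory factors with a peak (large points) among all 13059 protein-coding genes with one (small grey points), as mean normalized count per kb on a log scale against the log2 fold change. Dashed lines mark a 1.5-fold change. TNFRSF11B, CXCL2, CSF1 and CXCL1 lie low on both axes, and VEGFA, IL6ST and MIF carry the highest counts per kb.

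Set among all genes with a promoter peak, the lost promoters were also weak ones. TNFRSF11B stood at percentile 1.27 of the log2 fold change and at percentile 6.61 of the counts per kb. CXCL2 stood at 1.89 and 13.6, CSF1 at 2.21 and 3.17, and CXCL1 at 7.31 and 12.3 on the same scales. Weak peaks were not confined to the lost ones, since FGF2 (35.4 and 6.91) and CXCL3 (12.9 and 15.0) were not called. CXCL12 was at percentile 98.2 of the fold change and 40.3 of the level, and VEGFA at 86.6 and 76.7. Low counts give larger errors, and the part of peak strength in these values was not tested.

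For the 26 genes with no promoter peak, the nearest H3K27ac peak of any kind lay 5694 to 246750 bp from a start site, with a median of 36866.5 bp. It was over 100 kb away for CCL20, CSF2, AREG and EREG. It was under 10 kb for CXCL8 (8258 bp), MMP14 (5853 bp) and TNFRSF1A (5694 bp). At MMP2, HGF and TNFRSF1A the gene body held acetylation, and the peak nearest to HGF, hepatocyte growth factor, fell by 0.67 ± 0.27 on the log2 scale. The peak nearest to IL6 lay 55142 bp away and fell by 1.14 ± 0.11. The peak nearest to IL1A, 18468 bp away, fell by 1.82 ± 0.11 and covers the start site of CKAP2L, a spindle protein of dividing cells. The peak nearest to LIF, 42229 bp away at the promoter of CASTOR1, rose by 1.04 ± 0.18, and the one nearest to SERPINB2, 45598 bp away, fell by 0.93 ± 0.38. These are nearest peaks by position, and whether they act on the gene is not measured here.

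Enhancers, regions where H3K4me1 and H3K27ac overlap outside promoters, were listed by the authors for each state. Of the 38 genes, 11 had an H3K27ac peak in a listed enhancer, 15 peaks in all. Of these, 6 were lost, 0 were gained and 9 were not called, which is 40% called against a background of 33.3% of 17156 enhancer peaks. Losses made up 40% of the secretory enhancers against 19.2% of all enhancer peaks, and gains 0 of 15 against 14.1%. Had the p threshold stood alone, 4 would have counted as gained. The median log2 fold change was -0.16 against -0.043 over all enhancer peaks, with a range from -1.11 to 0.52. With a limit of 50 kb, or with most of the peak required inside enhancers, the secretory median was -0.026, and in a test against a fold change of 1.5 only the TNFRSF11B peak stayed lost. By list, 9 peaks were in enhancers of both states, 5 in enhancers of non-senescent cells only and 1 in an enhancer of senescent cells only. This last one was not called. Over all enhancer peaks, 4291 of 17156 were listed only for non-senescent cells. The lists rest on H3K27ac itself, so a listing for non-senescent cells only favours a fall.

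**Figure D3:**
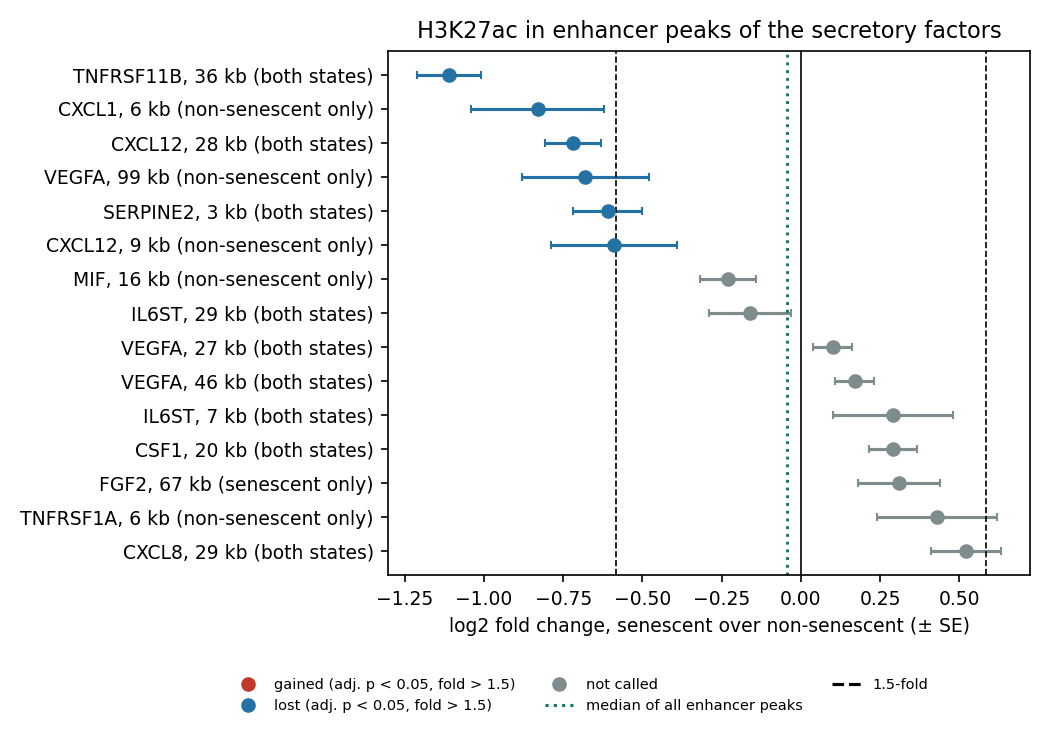
Log2 fold change of H3K27ac (senescent over non-senescent, ± SE) in the 15 enhancer peaks of 11 secretory genes, with the distance to the nearest start site of the gene and the enhancer list each peak is in. Dashed lines mark a 1.5-fold change and the dotted line the median of all enhancer peaks (-0.043). The 6 lost peaks lie at the left and no peak passes the line on the right.

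At TNFRSF11B, H3K27ac fell at an enhancer as well as at the promoter. The enhancer is listed for both states, and its peak of 614 counts, 35667 bp from the start site, fell by 1.11 ± 0.10 on the log2 scale (adjusted p = 2.37e-28), to a ratio of 0.463, the largest fall of the 15. H3K27ac at CXCL1 likewise fell at an enhancer listed only for non-senescent cells, 6119 bp upstream (chr4:73861698-73863274). It held 93.8 counts and fell by 0.83 ± 0.21 (adjusted p = 3.33e-04). At these genes promoter and enhancer thus moved the same way, though at CXCL1 the listing of the enhancer itself favours a fall.

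At CXCL12 they did not. While its promoter peak rose, a peak of 758 counts 27694 bp from its start sites (chr10:44351997-44357349) fell by 0.72 ± 0.088 on the log2 scale (adjusted p = 6.40e-15). A second enhancer peak on the other side, 118 counts at 9171 bp (chr10:44394268-44396448), fell by 0.59 ± 0.20 (adjusted p = 0.0115), just inside the fold threshold. This second peak is listed only for non-senescent cells, which favours a fall, and the first is listed for both states. The difference between promoter and enhancer within the gene was not tested, since the values of single libraries are not in the tables.

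VEGFA had 3 enhancer peaks, which differed in size and in value. The nearest, of 4650 counts at 27081 bp (chr6:43801434-43815741), had a log2 fold change of 0.10 ± 0.061 (adjusted p = 0.174). The next, of 6800 counts at 46041 bp (chr6:43820394-43841454), had 0.17 ± 0.062 (adjusted p = 0.0157). The farthest, listed only for non-senescent cells, held 103 counts at 98825 bp (chr6:43873178-43875243) and fell by 0.68 ± 0.20 (adjusted p = 0.00294). The large domains near the gene thus stayed within 1.5-fold, and the called loss was at a small peak near the limit of 100 kb.

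In the SERPINE2 gene body, a peak of 433 counts 3225 bp from a start site (chr2:224007678-224010724) fell by 0.61 ± 0.11 on the log2 scale (adjusted p = 6.20e-07). CXCL8, which had no promoter peak, had the highest value of the 15. Its enhancer peak of 399 counts at 29107 bp (chr4:73769676-73772372) had a log2 fold change of 0.52 ± 0.11 (adjusted p = 3.08e-05), a ratio of 1.43 just outside the fold threshold. CSF1, whose promoter peak was lost, had an enhancer peak of 1390 counts at 19598 bp (chr1:109930584-109937248) with a log2 fold change of 0.29 ± 0.075 (adjusted p = 5.36e-04). The remaining enhancer peaks belonged to IL6ST (0.29 ± 0.19 and -0.16 ± 0.13), MIF (-0.23 ± 0.087), FGF2 (0.31 ± 0.13) and TNFRSF1A (0.43 ± 0.19), all short of the fold threshold. The FGF2 peak lies in the FGF2 body but is nearest to a start site of NUDT6, the gene on the opposite strand.

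Of the genes, 6 (CXCL8, CXCL1, CXCL3, CXCL2, EREG and AREG) lie in one cluster on chromosome 4. From 60 kb before to 60 kb after them there were 15 H3K27ac peaks, of which 6 were lost and 1 was gained, against 13.1% lost and 9.47% gained (22.6% called) over all H3K27ac peaks. Of the 6 losses, 4 had their centre within 20 kb of the CXCL1 start site. They were at chr4:73849629-73853024 (a fall of 0.69 ± 0.13), chr4:73859523-73860880 (1.43 ± 0.19), the enhancer peak described above and the promoter itself. The nearest start site to the first and to the second of these was that of PF4V1, at 272 bp and 6227 bp. The first lies in an enhancer listed only for senescent cells, although it fell, and the second in one listed only for non-senescent cells. The fifth, the strongest of the losses at 524 counts, lay between CXCL1 and CXCL3 and nearest to PF4 (chr4:73945992-73950543). It fell by 0.96 ± 0.10 on the log2 scale (adjusted p = 1.64e-21). The sixth was the CXCL2 promoter.

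The one gain in the cluster, chr4:74010931-74013040, lay nearest to CXCL5 and rose by 0.67 ± 0.15. Its neighbours were the lost peak of 524 counts on one side and the CXCL3 promoter on the other. Past the promoter of MTHFD2L no H3K27ac peak was found in the rest of this window, which holds EREG and AREG, whose products are ligands of the EGF receptor. These 2 genes are among the 4 farthest from any acetylated peak.

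**Figure D4:**
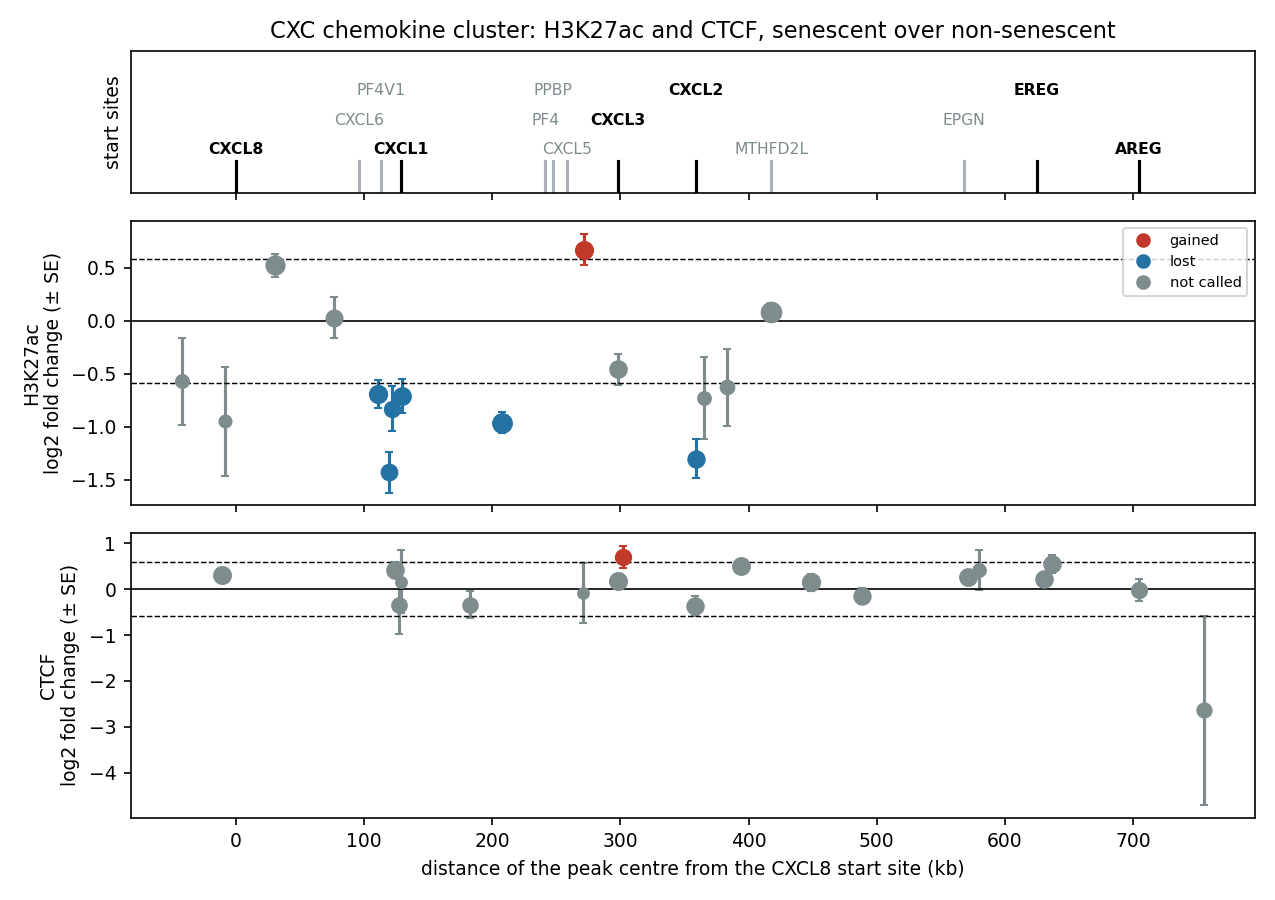
H3K27ac (middle) and CTCF (bottom) peaks of the CXC chemokine cluster as log2 fold change (senescent over non-senescent, ± SE) against the distance of the peak centre from the CXCL8 start site in kb, with gene start sites on top (secretory factors in bold). Point size grows with the mean count and dashed lines mark a 1.5-fold change. Lost H3K27ac peaks gather around the neighbours PF4V1 and CXCL1, and of 18 CTCF peaks 1, next to CXCL3, is gained.

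The interleukin 1 genes and the matrix metalloproteinases form clusters of their own. Within 60 kb of IL1A and IL1B there were 5 H3K27ac peaks, with log2 fold changes from -1.82 to 0.69. Of these 1 was lost, the CKAP2L promoter, against 13.1% lost over all H3K27ac peaks. Around MMP10, MMP1 and MMP3, collagenase and stromelysins of the matrix, there was a single peak of 115 counts with a log2 fold change of 0.19 ± 0.19. The interleukin 1 cluster held 4 CTCF peaks and the metalloproteinase cluster 4, and 0 of these were called, against 5.58% over all CTCF peaks. With so few peaks these counts are not a result about the clusters.

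CTCF at the secretory genes differed little between the states. Of 17 promoters with a CTCF peak, 1 was lost and 0 were gained, which is 5.88% called against a background of 5.1% of the 9366 genes with one, 4.61% lost and 0.491% gained. A share so near the background is not a result about these genes. The median log2 fold change was -0.012, with 9 values negative and 8 positive, and the median over all genes was -0.166. In level the secretory promoters were close to the rest, with 90.3 against 81.3 counts per kb.

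The called loss was at FGF2, whose peak of 75.7 counts (chr4:122827187-122828416) fell by 0.66 ± 0.25 on the log2 scale (adjusted p = 0.109). It would not pass an adjusted p of 0.05. The highest CTCF counts were at VEGFA (385), CXCL12 (384), ICAM1 (369), MIF (284) and SPP1 (262). Their log2 fold changes were 0.029 ± 0.13, -0.092 ± 0.12, -0.17 ± 0.13, 0.032 ± 0.14 and 0.056 ± 0.14. Of their 95% intervals, that of ICAM1 reached farthest from 0 and ran from -0.42 to 0.08, so a 1.5-fold change lies outside all of them.

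**Figure D5:**
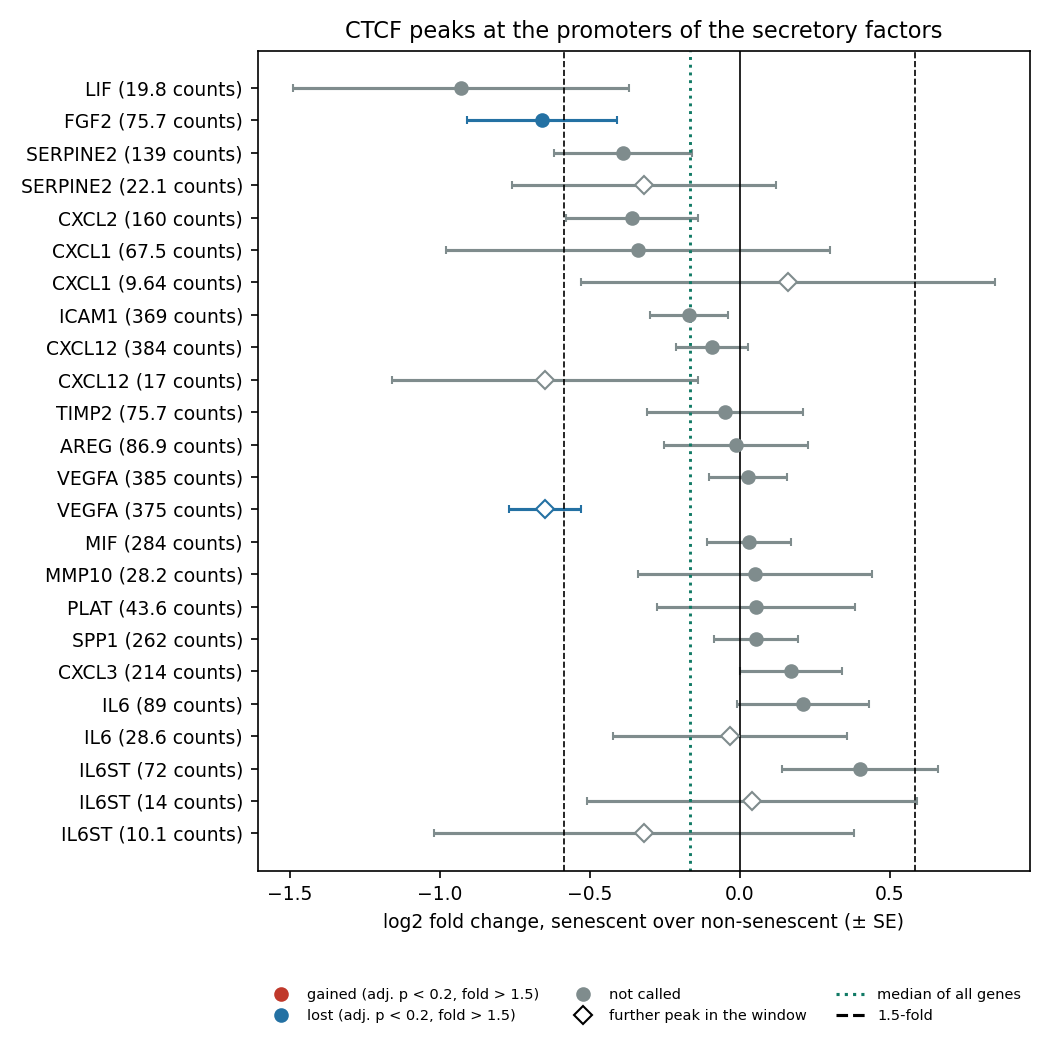
Log2 fold change of CTCF (senescent over non-senescent, ± SE) at all 24 CTCF peaks in the promoter windows of 17 secretory genes, with the mean normalized count in brackets. Filled circles stand for the gene, open diamonds are further peaks in the window, dashed lines mark a 1.5-fold change and the dotted line the median of all genes (-0.166). FGF2 and the further VEGFA peak are the called losses, and no peak is called gained.

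A second peak in the VEGFA window was lost. It held 375 counts (chr6:43772932-43775510), almost as many as the peak over the first start site, and fell by 0.65 ± 0.12 on the log2 scale (adjusted p = 4.25e-05). It lies inside the acetylated VEGFA domain described above, whose H3K27ac was 1.26 of the non-senescent level, and the first CTCF peak overlaps the edge of that domain. Counting every peak in the windows, 2 of 24 were lost and 0 gained, against 3.28% lost and 2.29% gained (5.58% called) over all CTCF peaks.

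IL6 had CTCF but no H3K27ac at its start site, with 89 counts and a CTCF log2 fold change of 0.21 ± 0.22. LIF had the most negative value, -0.93 ± 0.56 at 19.8 counts (adjusted p = 0.367), with an interval from -2.02 to 0.17 that leaves its direction unresolved. In the chemokine cluster, the CTCF promoter peaks of CXCL1, CXCL2 and CXCL3 had -0.34 ± 0.64, -0.36 ± 0.22 and 0.17 ± 0.17, none of them called. The 1 CTCF gain of the cluster, chr4:74042393-74043324, lay 3704 bp from CXCL3 and rose by 0.70 ± 0.24 (adjusted p = 0.0786).

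Rb, the retinoblastoma protein, silences cell-cycle genes in senescent cells. The authors' list of senescence-specific Rb regions held none at the promoter or in the body of any of the 38 genes. Since 308 of 19676 protein-coding genes (1.57%) had one at the promoter, a count of 0 at 38 promoters is near the background. The nearest regions lay 32703 bp from TIMP2, 73945 bp from MMP9 and 79722 bp from SERPINB2, and the median distance was 762459 bp.

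Among the other 51 genes of the study's SASP signature, 16 had a promoter H3K27ac peak, of which 2 were gained and 1 was lost (6.25%, against 8.94% lost and 3.15% gained over all genes), with a median log2 fold change of 0.019. The gained genes were FAS, a death receptor (1.30 ± 0.48 at 19.2 counts), and ITPKA, an inositol phosphate kinase (0.71 ± 0.22 at 120 counts). The FAS peak also covers a start site of ACTA2, and the ITPKA peak lies inside the gene, 1113 bp from a start site. The lost gene was IGFBP1, an insulin-like growth factor binding protein (-1.20 ± 0.47 at 17.5 counts). Of 17 receptors through which the secreted factors act, 8 had a peak and 1 was lost (12.5%, against 8.94% over all genes), too few to read a result about the receptors. The lost one was CXCR4, the receptor of CXCL12, which fell by 1.46 ± 0.20 on the log2 scale (adjusted p = 6.33e-12) at a mean of 113 counts, while the promoter of its ligand rose.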

How the data were processed

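H3K27ac, CTCF, H3K4me1 and Rb ChIP-seq of senescent and non-senescent EndoC-βH3 cells was used, grouped from the labels. Per the study's methods, the authors aligned reads to hg38, called peaks with HOMER (H3K27ac, H3K4me1) or MACS2 (CTCF, Rb) and compared read counts in peaks with DESeq2; versions were not given in the sources used here. The authors' mean signal is the mean of counts divided by size factors, which hide any shift common to most peaks. The deposited log2 fold change and SE are on the log2 scale. The deposited Wald score is their ratio. The deposited p-value and adjusted p-value are the authors', and 11972 of 51457 CTCF peaks have no adjusted p and stayed uncalled. The authors' enhancer and Rb lists hold positions alone.

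The planned edgeR test needs counts per library, which the tables do not hold. The study's thresholds were therefore applied to the deposited values and no model was refitted. For CTCF the study kept only peaks that hold the CTCF motif. No such filter was applied here, so the CTCF calls and their background need not be those of the study. Depth per library is not in the tables. The sum of the mean normalized counts was 19239499 in the H3K27ac table and 6136424 in the CTCF table. The scripts were tested on simulated data. Peaks were joined to GENCODE 44 start sites of protein-coding transcripts by at least 1 bp of overlap with a window of 2 kb on either side, with Python 3.11.15, pandas 2.3.3 and pysam 0.24.0. Genes were named if a peak was called, if they had no promoter H3K27ac peak, if their counts were among the 5 highest, or if they lay beside a threshold. Genes described beyond that rule were chosen after their values were seen. The members and lists were chosen with earlier results of these data known. Peak coordinates are those of the files.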

Additional observations from a re-analysis of the deposited data

How the results depend on the processing

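No paired analysis was possible because the tables hold no values per library, and for the same reason no library could be left out. Of the counts and medians recomputed under other settings, 91 kept within 1.5 times or the spread and 15 did not. At promoters, 0 H3K27ac peaks were gained at a fold above 2 and 2 with adjusted p alone. A test against a fold of 1.5 left 0 gained and 2 lost, CXCL2 and TNFRSF11B. The median was -0.31 with a 5 kb window and -0.46 with the canonical start site, an alternative chosen after seeing the data. SERPINE2 was then lost, at -0.61 and -0.73. CSF1 lost its call with the GC trend removed (-1.04 ± 0.47). The CTCF loss at FGF2 left 0 lost at a fold above 2, in the test against 1.5, with the GC trend removed and at an adjusted p of 0.05. Of enhancer peaks, 1 was lost at a fold above 2 and in the test against 1.5 (TNFRSF11B), 4 were gained with adjusted p alone, and the median was -0.026 with a 50 kb limit or with most of the peak inside enhancers.

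Among single peaks, 447 values kept sign and call, 20 lost a call, 9 gained one and 14 changed sign, none of these a called peak. Centring on the strongest peaks, a shift of 0.059 for H3K27ac and 0.034 for CTCF, gave -0.018 for TIMP2 H3K27ac and, for CTCF, -0.002 for MIF and -0.005 for VEGFA. Removing the GC trend gave 0.090 for FGF2 H3K27ac and, for CTCF, 0.10 for CXCL12, 0.019 for ICAM1, -0.11 for MMP10, 0.32 for TIMP2, 0.12 for AREG and -0.16 for SPP1. CXCL1 CTCF was 0.16 with a 1 kb window or the nearest peak and 0.42 with a 5 kb window, and IL6ST CTCF was -0.32 at the canonical start site. These sign changes were not confined to weak peaks, since they include CTCF at VEGFA (385 counts), CXCL12 (384) and ICAM1 (369). The cause was not tested.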

Other observations

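CTCF at the promoters of the 17 receptors of the secreted factors had a negative log2 fold change at each of the 9 with a peak, with a median of -0.39. Over all genes the median was -0.166 and 6675 of 9366 values were negative. Of these peaks, 1 was called (11.1%, against 5.1% over all genes), that of IL1RAP, the accessory chain of the interleukin 1 receptor, which fell by 0.64 ± 0.16 on the log2 scale (adjusted p = 0.00742). At ITPKA, whose promoter window gained H3K27ac, the CTCF peak of 34.1 counts fell by 1.17 ± 0.40 (adjusted p = 0.0689). This CTCF peak lies inside the gene, 1345 bp from a start site. It was the 1 called among 24 CTCF promoter peaks of the other SASP signature genes (4.17%, a share near that over all genes). LMNB1, the nuclear lamina protein that is known to decline in senescent cells, had 2180 counts of H3K27ac at its promoter and a log2 fold change of -0.50 ± 0.064 (adjusted p = 1.59e-13), short of the fold threshold.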
